A study of Homo sapiens with 14 samples.

Results

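The interferon-stimulated genes are the genes that cells switch on when they are exposed to interferon. A list of 44 of them was followed by gene symbol, and all 44 symbols were found among the 62703 genes of the count table. The members were chosen by gene symbol.

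The libraries were made to ask what inhibition of CDK8 and CDK19 does to gene expression in prostate cancer cells that respond to the antiandrogen enzalutamide and in cells that resist it. CDK8 and CDK19 are the kinases of the Mediator complex, which links transcription factors to RNA polymerase II. Cells of the established lines LNCaP, 22Rv1 and PC3 received either SEL120-34A, an inhibitor of both kinases, at 1.5 µM or the vehicle DMSO, and were harvested after 3 days. There were 3 libraries in each arm of LNCaP and of 22Rv1, and 1 in each arm of PC3. No genetic change was introduced, no interferon was added and all lines grew in the same serum-containing medium. The study's methods speak of biological replicates in general, but the labels do not tie each of these libraries to a separate culture. Where libraries share a culture, p-values measure only the spread between these libraries, which may be technical. RNA was measured by BRB-seq, which counts tags from the 3′ ends of transcripts, and total counts ranged from 246063 to 909176 per library.

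Type I and type III interferons bind cell surface receptors, and the JAK kinases behind those receptors activate a complex that holds STAT2 and IRF9. This complex binds the interferon-stimulated response element in the promoters of its target genes. The products of these genes sense viral RNA, block translation, trap virus particles at membranes or tag proteins with ISG15. Many tumor cell lines keep some of these genes on without any added interferon.

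The response element is a direct repeat of GAAA with 2 bases between the repeats, and it was searched for in the RefSeq promoters of build GRCh38.p14, from 250 bases before to 50 bases after each start. The letters searched were GAAANNGAAA on one strand and TTTCNNTTTC on the other. Of 35116 promoters, 1255 held a match, or 3.57%. A promoter was found for 35 members, and 23 of these held a match in at least 1 of their promoters, or 65.7%. This share is counted per gene, and some members had 2 or 3 promoters, whereas the 3.57% is counted per promoter. The 2 shares are therefore not on the same scale. IFIT2, IFITM2, IRF7, LY6E, MX2, OAS2, OASL, TRIM22 and USP18 had no entry. The stretches below are those of some of the members whose values carry the comparisons. IFITM1 is shown beside its neighbor IFITM3 because it holds the element and had no count in any library. IFIH1 held 3 matches and is not shown. OAS1, IRF1, SP100 and UBE2L6 were among the members whose promoters held no match. Each stretch shown is 40 bases on the strand of its gene, with 1 match in capitals. The ISG15 and IFIT1 stretches also hold another match, which is not marked.

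ISG15: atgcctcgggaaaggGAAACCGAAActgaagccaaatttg
IFITM3: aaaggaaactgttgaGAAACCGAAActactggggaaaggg
IFITM1: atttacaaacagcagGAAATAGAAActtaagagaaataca
PARP9: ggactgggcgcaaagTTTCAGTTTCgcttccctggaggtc
DTX3L: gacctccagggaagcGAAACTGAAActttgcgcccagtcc
EIF2AK2: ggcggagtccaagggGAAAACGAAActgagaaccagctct
IFIT1: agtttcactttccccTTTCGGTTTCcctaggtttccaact

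The ISG15 stretch is chr1:1013375-1013414 on the plus strand, that of IFITM3 is chr11:320871-320910 on the minus strand and that of IFITM1 is chr11:313985-314024 on the plus strand. PARP9 and DTX3L lie head to head on chromosome 3, and their 2 stretches are the same bases, chr3:122564317-122564356, read on the minus strand for PARP9 and on the plus strand for DTX3L. The EIF2AK2 stretch is chr2:37156962-37157001 on the minus strand and that of IFIT1 is chr10:89392505-89392544 on the plus strand. Of the 7 members with enough counts for a test, 5 held a match, while the promoter of ADAR held none and LY6E had no entry. A match is a description of these letters and does not show that a factor was bound.

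In the GENCODE annotation of GRCh38, ISG15 (ENSG00000187608.10) lies at chr1:1001138-1014540, IFITM3 (ENSG00000142089.17) at chr11:319676-329475, PARP9 (ENSG00000138496.17) at chr3:122527924-122564577 and DTX3L (ENSG00000163840.10) at chr3:122564338-122575203. ADAR (ENSG00000160710.18) lies at chr1:154581695-154628013, EIF2AK2 (ENSG00000055332.19) at chr2:37099210-37157522 and IFIH1 (ENSG00000115267.10) at chr2:162267074-162318684. The tags come from the 3′ ends of these genes, so the promoter stretches themselves were not measured.

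The interferon-stimulated genes were sparse in LNCaP and 22Rv1 and much better represented in PC3. Over the libraries of a line, 35 members had at least 1 count in LNCaP, 24 in 22Rv1 and 39 in PC3. With 3 counts taken as the detection floor, which stood for 3.17 to 12.6 CPM (counts scaled to a common library size), 14 members exceeded it in some LNCaP library, 11 in some 22Rv1 library and 27 in a PC3 library. Of the 29 members over the floor anywhere, 14 were over it in PC3 only. The PC3 DMSO library was the deepest of all, so the number of members expected in each library at 246063 counts was also computed. It was 14.7 to 18 in the 6 LNCaP libraries, 11 to 14.8 in the 6 22Rv1 libraries, 31.2 in the PC3 DMSO library and 25.8 in the PC3 SEL120-34A library. The difference in detection was therefore present at equal depth.

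**Figure D1:**
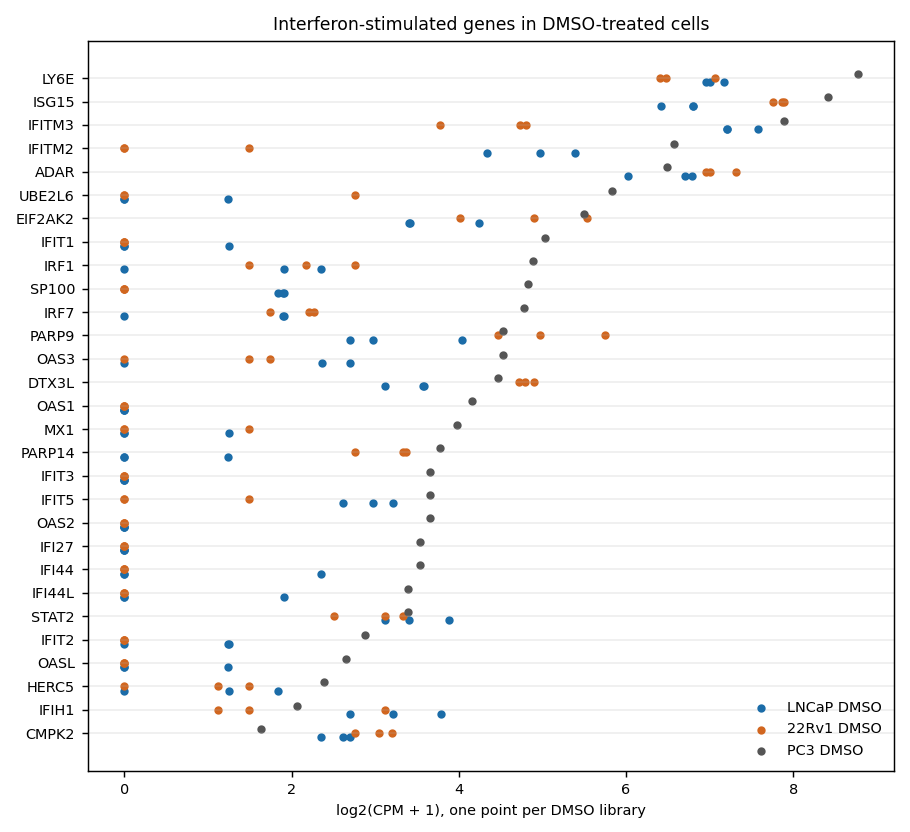
Levels of the 29 members over 3 counts in some library, as log2(CPM + 1) on the x axis, with 1 row per gene and 1 point per DMSO library of LNCaP (blue), 22Rv1 (orange) and PC3 (gray). Rows such as IFIT1, OAS1 and UBE2L6 have their PC3 point well to the right of LNCaP and 22Rv1 points at or near 0, while STAT2 and CMPK2 do not.

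Summed over all 44 members, the level was 607 ± 20.4 CPM in LNCaP DMSO, 585 ± 66.6 in LNCaP SEL120-34A, 621 ± 25.8 in 22Rv1 DMSO and 628 ± 62.5 in 22Rv1 SEL120-34A (SD, n = 3 each). The SEL120-34A libraries overlapped the DMSO libraries in both lines. The sum was 1635 CPM in the PC3 DMSO library and 1331 in the PC3 SEL120-34A library. ISG15, LY6E, IFITM3 and ADAR held 67.4% to 87.3% of the member counts in every library, so the sum is mainly theirs. Without them the sum was 121 ± 11.0 CPM in LNCaP DMSO, 149 ± 17.9 in LNCaP SEL120-34A, 134 ± 29.4 in 22Rv1 DMSO and 103 ± 28.1 in 22Rv1 SEL120-34A, against 533 and 368 in PC3. By library, this remainder was 125.4, 128.3 and 108 CPM in LNCaP DMSO and 129.7, 150.8 and 165.3 CPM in LNCaP SEL120-34A. The arms therefore did not overlap in LNCaP, whereas they overlapped in 22Rv1. The gap in LNCaP, from 128.3 to 129.7 CPM, was smaller than 1 count in LNCaP SEL120-34A replicate 1, which stood for 3.81 CPM. It is also lost when IFIH1 is taken out of the sum. IFIH1 was at 8.27, 12.8 and 5.47 CPM in LNCaP DMSO and at 15.25, 29.1 and 37.2 CPM in LNCaP SEL120-34A. The difference in the remainder between the LNCaP arms was not tested. Bulk libraries do not tell fewer expressing cells from less RNA per cell.

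**Figure D2:**
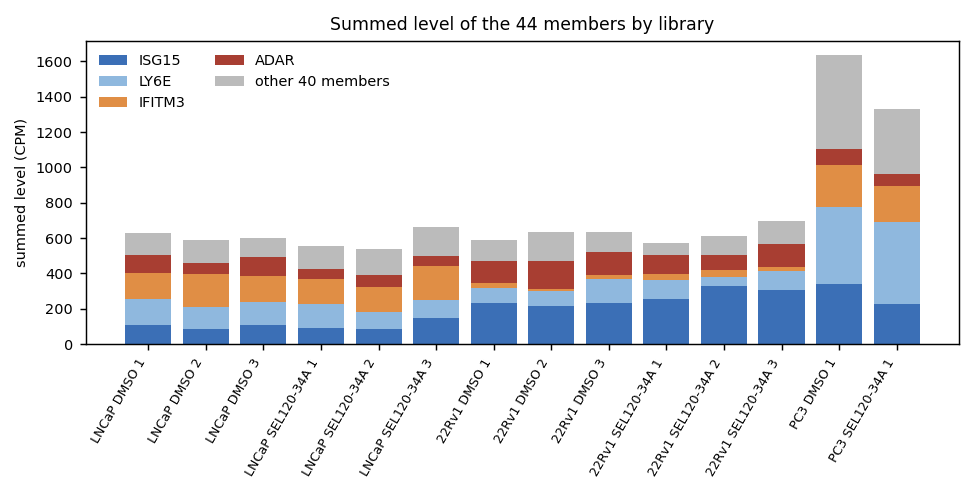
Summed level of the 44 members in each of the 14 libraries in CPM, with the bar split into ISG15, LY6E, IFITM3, ADAR and the other 40 members. The 12 LNCaP and 22Rv1 bars are between 540 and 697 CPM, and the PC3 bars reach 1635 and 1331, with a larger gray segment for the other members.

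All 6 androgen-responsive genes on the marker list had more RNA in LNCaP than in 22Rv1, and VIM and CAV1, genes of mesenchymal cells, had 1159 and 585 counts in the PC3 DMSO library against at most 34 and 24 in any LNCaP or 22Rv1 library. The 5 leukocyte markers were at or under the floor in every library, as were 3 of 4 fibroblast markers. The exception was COL1A1, with up to 85 counts in PC3. Leukocytes are one of the other sources of interferon-stimulated transcripts in a tissue, whereas these libraries came from cultured lines. The part of other cells in the member levels was not tested. PTPRC, a gene of leukocytes in general, and CD3E, a gene of T cells, had 0 counts throughout.

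The low-count filter of edgeR left 7086 genes for testing in the 12 LNCaP and 22Rv1 libraries, and 7 members were among them: ISG15, IFITM3, PARP9, DTX3L, LY6E, ADAR and EIF2AK2. The filter asked for about 22.5 CPM in at least 3 libraries. ISG15, LY6E and ADAR met this in every library, and IFITM3 met it in all LNCaP libraries and in 2 libraries of each 22Rv1 arm. PARP9, DTX3L and EIF2AK2 met it mainly in 22Rv1 libraries. These 3 therefore passed through the line in which they were high, and the count of members that differed between lines is given as a description.

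Between the DMSO arms, edgeR's quasi-likelihood test called 5 of the 7 members higher in 22Rv1 than in LNCaP (ISG15, PARP9, DTX3L, EIF2AK2 and ADAR) and 1 lower (IFITM3), at adjusted p-values under 0.05 over all tested genes. Over all genes, 25% were called higher and 24% lower in this contrast, so a line difference was common. The libraries of the 2 lines did not overlap for ISG15, IFITM3, PARP9, DTX3L and ADAR, against 56.3% of all tested genes.

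ISG15 is a ubiquitin-like protein that is attached to other proteins. Its level was 110.2, 84.7 and 111 CPM in LNCaP DMSO, and 232, 215 and 235.5 CPM in 22Rv1 DMSO. Every 22Rv1 library was above every LNCaP library. The log2 difference was 1.13 ± 0.17 (SE; edgeR adjusted p = 4.02e-07), and the pooled counts gave a 2.18-fold higher level in 22Rv1. The PC3 DMSO library was at 340.1 CPM, above all the others. Its pooled level was 3.24-fold that of LNCaP (95% counting interval 2.70 to 3.89) and 1.49-fold that of 22Rv1 (1.28 to 1.72).

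The IFITM proteins sit in cell and endosome membranes and hinder the fusion of viruses. IFITM3 was at 147, 189.9 and 146 CPM in LNCaP DMSO and at 26.85, 12.7 and 25.65 CPM in 22Rv1 DMSO. It was low in all 22Rv1 libraries, with a log2 difference of -2.82 ± 0.23 (edgeR adjusted p = 2.87e-13), or 6.99-fold lower from the pooled counts. PC3 DMSO had 237 CPM. IFITM2, the neighboring gene on chromosome 11, had 22, 16 and 14 counts in LNCaP DMSO and 0, 1 and 0 counts in 22Rv1 DMSO. IFITM2 did not pass the filter, and from the pooled counts it was 54.3-fold lower in 22Rv1 (95% counting interval 9.33 to 2186). In the fit with no filter, edgeR called IFITM2 lower in 22Rv1 (adjusted p = 4.99e-12). The PC3 DMSO library had 89 counts of IFITM2, or 94.0 CPM. IFITM1 had 0 counts in all 14 libraries. IFITM2 and IFITM3 are close in sequence, and reads could have been split or dropped between them, so the level of each is uncertain, whereas both were low in the same line.

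PARP9 and DTX3L encode a pair of partner proteins, an ADP-ribosyltransferase family member and a ubiquitin ligase. PARP9 was at 5.51, 15.4 and 6.84 CPM in LNCaP DMSO and at 21.1, 52.8 and 30.3 CPM in 22Rv1 DMSO. DTX3L was at 11.0, 7.70 and 10.9 CPM in LNCaP DMSO and at 28.8, 25.5 and 26.8 CPM in 22Rv1 DMSO. Both genes of the shared promoter were higher in all 22Rv1 libraries, with log2 differences of 2.04 ± 0.43 for PARP9 (edgeR adjusted p = 1.32e-04) and 1.38 ± 0.40 for DTX3L (adjusted p = 0.00386). Since both passed the filter through 22Rv1, these are given as a description, and in the edgeR fit with no filter the adjusted p-values were 7.46e-06 and 0.00484. PARP14, from the same family and also on chromosome 3, was too sparse for the filter, with 0, 0 and 1 counts in LNCaP DMSO and 3, 5 and 8 in 22Rv1 DMSO. In PC3 DMSO, PARP9 had 22.2 CPM and DTX3L 21.1 CPM, and for both genes the interval of the ratio to 22Rv1 included 1.

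EIF2AK2, also called PKR, is a kinase that stops translation when it meets double-stranded RNA, and ADAR edits double-stranded RNA so that it is less well recognized. EIF2AK2 was at 9.645, 17.96 and 9.57 CPM in LNCaP DMSO and at 28.8, 45.5 and 15.2 CPM in 22Rv1 DMSO. The lines overlapped for EIF2AK2, and the log2 difference was 1.28 ± 0.41 (edgeR adjusted p = 0.00888), which rested on 22Rv1 DMSO replicate 2 (0.84 and adjusted p = 0.124 without it). ADAR was at 103, 64.1 and 109 CPM in LNCaP DMSO and at 123, 158 and 127 CPM in 22Rv1 DMSO. The ADAR difference of 0.50 ± 0.18 (edgeR adjusted p = 0.0225) was the smallest of those called and did not pass the threshold in the DESeq2 Wald test (adjusted p = 0.0718) or without the filter (0.0503). It was also lost in edgeR without LNCaP DMSO replicate 2 (0.33, adjusted p = 0.166) or 22Rv1 DMSO replicate 2 (0.39, adjusted p = 0.1104).

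LY6E is a membrane protein that limits the entry of some viruses. Its level was 143, 123 and 127 CPM in LNCaP DMSO and 88.2, 83.7 and 133 CPM in 22Rv1 DMSO, and the lines overlapped. The log2 difference was -0.34 ± 0.19 (edgeR adjusted p = 0.145, 95% interval -0.72 to 0.05). Without 22Rv1 DMSO replicate 3, the highest of its arm, LY6E was called lower in 22Rv1 (-0.605, edgeR adjusted p = 0.025). The PC3 DMSO library had 436 CPM, 3.29-fold the LNCaP level (95% counting interval 2.80 to 3.87) and 4.08-fold that of 22Rv1 (3.45 to 4.85).

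**Figure D3:**
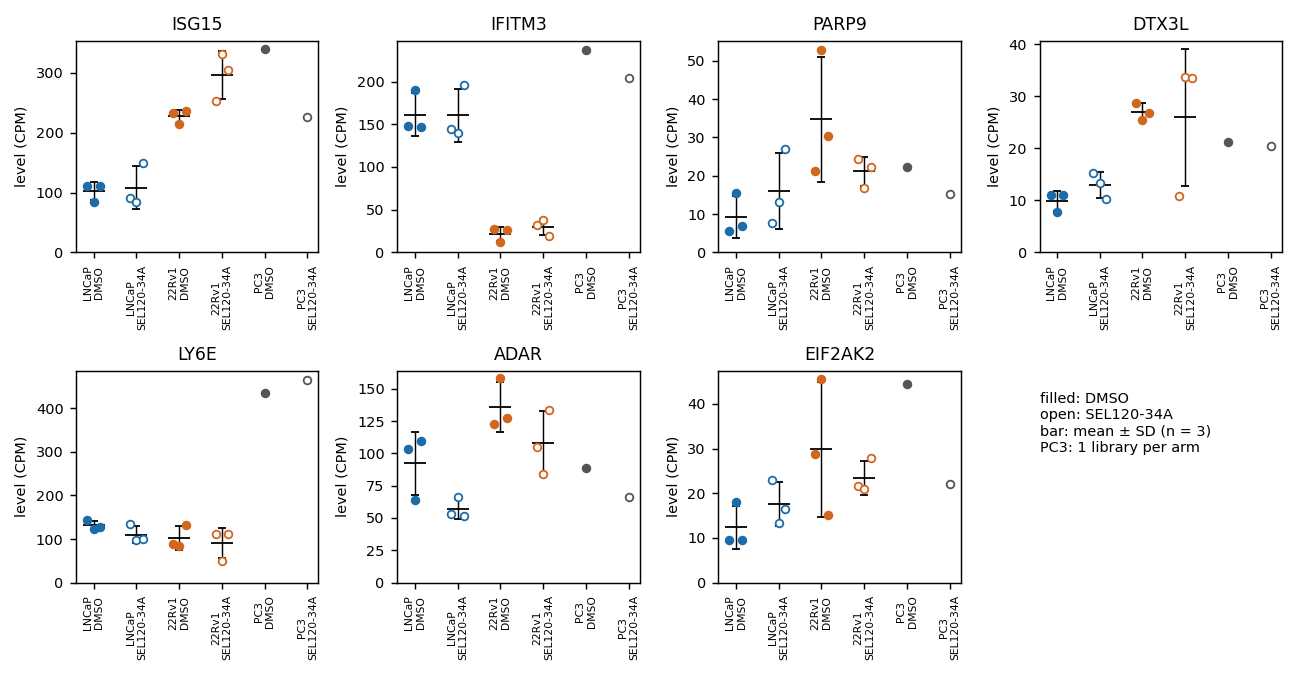
Level of each of the 7 tested members in CPM on the y axis, by line and treatment, with 1 point per library (filled for DMSO, open for SEL120-34A) and the mean ± SD of the 3 libraries where there were 3. IFITM3 stands out with all 22Rv1 points at or under 37.8 CPM and all LNCaP points at or above 140.3 CPM.

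The PC3 DMSO library was above the other lines both in well-counted members, such as LY6E, and in members that LNCaP and 22Rv1 hardly had, such as UBE2L6 and IFIT1. Counting members with at least 20 counts over the libraries compared, 12 of 16 were at least 2-fold higher in PC3 DMSO than in pooled LNCaP DMSO, against 20.7% of all genes, and 0 of 16 were at least 2-fold lower, against 17.6%. Against pooled 22Rv1 DMSO, 9 of 16 were at least 2-fold higher, against 19.8% of all genes, and 0 of 16 were at least 2-fold lower, against 18.9%. Members such as UBE2L6, IFIT1, IRF1, IRF7 and SP100 reached 20 counts only through the PC3 library, in which they were high. These counts of members are therefore given as a description. The shares over all genes used the same rule. With 1 PC3 library there was no replicate check.

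UBE2L6, the conjugating enzyme for ISG15, was among the members higher in PC3. It had 53 counts in PC3 DMSO (56.0 CPM), against 1 count over the 3 LNCaP DMSO libraries and 3 counts over the 3 22Rv1 DMSO libraries. The ratio was 103-fold over LNCaP, with a 95% counting interval of 17.8 to 4159, and 36.0-fold over 22Rv1, with an interval of 11.7 to 180.0. The ligases HERC5 and HERC6 and the ISG15-removing protease USP18 stayed low, with 16, 6 and 3 counts over all 14 libraries. ISG15 itself was thus well counted in all lines, whereas UBE2L6 was well counted in PC3 only.

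The IFIT genes encode proteins that bind foreign RNA caps and ends. IFIT1 had 30 counts in PC3 DMSO, 1 count over LNCaP DMSO and 0 over 22Rv1 DMSO. With the floor of 3 counts over the group in place of 0, PC3 was 20.4-fold higher than 22Rv1. The counting interval from the counts themselves began lower, at 15.57-fold. IFIT3 had 11 counts in PC3 DMSO and 0 in both other DMSO arms, and IFIT2 had 6, 2 and 0 counts in PC3, LNCaP and 22Rv1. IFIT5 was the exception of this family. It had 11 counts in PC3 DMSO and 13 over LNCaP DMSO, a ratio of 1.65 with an interval of 0.67 to 3.99, and 1 count over 22Rv1 DMSO.

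The OAS enzymes make the second messenger that activates an RNA-degrading enzyme, and MX1 is a GTPase that blocks several viruses. OAS1 had 16 counts in PC3 DMSO and 0 in all 12 LNCaP and 22Rv1 libraries. With the same floor in place of 0, PC3 was 10.4-fold above LNCaP DMSO and 10.9-fold above 22Rv1 DMSO. The counting intervals from the counts themselves began lower, at 7.522-fold and 7.855-fold. OAS2 had 11 counts in PC3 DMSO and likewise 0 in those 12 libraries. OAS3 was present in all lines, with 21 counts in PC3 DMSO, 7 over LNCaP DMSO and 3 over 22Rv1 DMSO, and OASL had 5, 1 and 0. MX1 had 14 counts in PC3 DMSO and 1 over each other DMSO arm, while MX2 had 1 count in all. OAS1 and OAS2 were thus low but countable in PC3 and without a count in LNCaP and 22Rv1.

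Among the transcription factors, IRF1 and IRF7 were higher in PC3. IRF1 had 27 counts in PC3 DMSO, 5 over LNCaP DMSO and 7 over 22Rv1 DMSO, ratios of 10.5 (95% counting interval 3.998 to 35.0) and 7.86 (3.34 to 21.4). IRF7 had 25, 4 and 6 counts, ratios of 12.2 (4.21 to 48.2) and 8.49 (3.40 to 25.3). STAT2, a subunit of the complex that binds the response element, had 9, 20 and 13 counts in PC3, LNCaP and 22Rv1 DMSO, and the intervals of its ratios included 1. IRF9, the other subunit named above, had only 6 counts in all libraries. SP100, a component of nuclear bodies, had 26, 5 and 0 counts.

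The remaining members were sparse everywhere. IFI27 and IFI44 each had 10 counts in PC3 DMSO and IFI44L had 9, while 22Rv1 had 0 of each and LNCaP had 1 to 3 counts of each over its 6 libraries. IFI6 went the other way between the replicated lines, with 3, 2 and 3 counts in LNCaP DMSO and 0 in all 22Rv1 libraries, but each of these libraries was at or under the floor. CMPK2, a mitochondrial nucleotide kinase, had 11 counts in LNCaP, 21 in 22Rv1 and 4 in PC3. IFI35, BST2, DDX60, RSAD2, SAMD9, EPSTI1 and TRIM22 had 9, 7, 5, 4, 3, 2 and 1 counts over all 14 libraries. SAMD9L and XAF1, like IFITM1, had 0. A count of 0 in a library allows a level of up to 3.17 CPM in the deepest and 12.6 CPM in the shallowest, so these members were not detectable at this depth.

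For SEL120-34A against DMSO in LNCaP, no tested member passed the threshold. The edgeR test called 0 of 7 higher and 0 of 7 lower at an adjusted p under 0.05, against 1.99% and 0.776% of all genes. At an unadjusted p under 0.05 there were 2, ADAR and PARP9, and the DESeq2 Wald test also called 0. None of the 7 tested members had arms that did not overlap, against 19.5% of all tested genes. Of the 7 log2 fold changes 5 were above 0, with a median of 0.14 against 0.00076 over all genes, 50.1% of which were above 0.

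ADAR had the smallest p in LNCaP. From the DMSO values above, it went to 53.4, 66.2 and 51.7 CPM with SEL120-34A. The lowest DMSO library lay inside the range of the treated ones, and the other DMSO libraries lay above it. The log2 fold change was -0.71 ± 0.24 (95% interval -1.19 to -0.24), and the adjusted p of edgeR was 0.1055. Without LNCaP DMSO replicate 2, the low control, the adjusted p was 0.0442. PARP9 was at 7.63, 13.2 and 26.9 CPM with SEL120-34A, and its log2 fold change was 1.10 ± 0.54 (edgeR adjusted p = 0.363). The arms overlapped for PARP9, with 2 of 3 treated libraries inside the DMSO range. Without LNCaP SEL120-34A replicate 3, the highest, the PARP9 log2 fold change was 0.44 (edgeR adjusted p = 0.845).

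The other members tested in LNCaP had 95% intervals that included 0. ISG15 was at 91.5, 84.7 and 149 CPM with SEL120-34A, a log2 fold change of 0.14 (95% interval -0.26 to 0.54). IFITM3 was at 145, 140.3 and 196 CPM, a log2 fold change of 0.07 (-0.30 to 0.44), which turned to -0.01 when library totals replaced TMM scaling. The intervals for these 2 well-counted genes exclude a doubling and a halving of the level. LY6E was at 133.5, 97.9 and 99.2 CPM, a log2 fold change of -0.26 (-0.69 to 0.16). For DTX3L, at 0.31 (-0.74 to 1.36), and EIF2AK2, at 0.58 (-0.44 to 1.60), the intervals were too wide to exclude a doubling.

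Among the members under the filter, IFIH1 and IRF1 were higher in every LNCaP SEL120-34A library than in every LNCaP DMSO library and CMPK2 was lower in every one, by CPM. These 3 are named after their values were seen. They were 3 of the 28 members under the filter with a count in LNCaP, against 7.06% of the 11517 such genes whose arms did not overlap in either direction. IFIH1, also called MDA5, is a sensor of long double-stranded RNA. It had 6, 5 and 4 counts in LNCaP DMSO and 4, 11 and 18 with SEL120-34A, or 8.27, 12.8 and 5.47 CPM against 15.25, 29.1 and 37.2 CPM. In a fit with no filter, edgeR gave IFIH1 a log2 fold change of 1.75 ± 0.48 (adjusted p = 0.0328). IFIH1 exceeded the filter's 22.5 CPM in 2 LNCaP SEL120-34A libraries and in no other LNCaP or 22Rv1 library. It entered 10 of the fits that left out 1 library through this arm, where it was high, so these calls are a description. It lost the threshold there without LNCaP DMSO replicate 1 (0.139), 2 (0.0608) or 3 (0.278) or without LNCaP SEL120-34A replicate 1 (0.0549), and it was not tested without either of the other treated libraries. IRF1 had 2, 0 and 3 counts in LNCaP DMSO and 5, 4 and 3 with SEL120-34A, and in the fit with no filter its adjusted p in edgeR was 0.478. CMPK2 had 4, 2 and 3 counts in LNCaP DMSO and 1, 0 and 1 with SEL120-34A (adjusted p = 0.873).

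In 22Rv1, SEL120-34A likewise changed no tested member past the threshold. The edgeR test called 0 of 7 higher, against 4.15% of all genes, and 0 of 7 lower, against 1.55%, and 1 member, ISG15, had an unadjusted p under 0.05. The DESeq2 Wald test called 0 as well. ISG15 was at 254, 332 and 304 CPM with SEL120-34A. All 3 treated libraries were above all 3 DMSO libraries, the one member for which this held, against 22.8% of all genes whose arms did not overlap in either direction. The log2 fold change was 0.38 ± 0.16 (95% interval 0.05 to 0.70, edgeR adjusted p = 0.173). The 22Rv1 SEL120-34A libraries, at 246063 to 368778 counts, were all shallower than their controls, at 476455 to 777207. The part of this depth difference in the result was not tested beyond thinning all libraries to equal depth, which left 0 members called.

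PARP9 went in the opposite direction to LNCaP, to 24.3, 16.8 and 22.3 CPM in 22Rv1 with SEL120-34A, a log2 fold change of -0.65 ± 0.41 (edgeR adjusted p = 0.414), or -0.30 without 22Rv1 DMSO replicate 2. One treated library was below the DMSO range for 22Rv1 and 2 were inside it. ADAR was at 105, 84.0 and 134 CPM, a log2 fold change of -0.29 (95% interval -0.70 to 0.12). IFITM3 stayed low at 32.4, 37.8 and 19.5 CPM, and its log2 fold change was 0.39 (-0.34 to 1.13). For LY6E the log2 fold change was -0.13 (-0.58 to 0.33), for DTX3L -0.10 (-0.88 to 0.68) and for EIF2AK2 -0.24 (-1.07 to 0.59). Of the 7, 2 were above 0, with a median of -0.13 against 0.0025 over all genes.

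**Figure D4:**
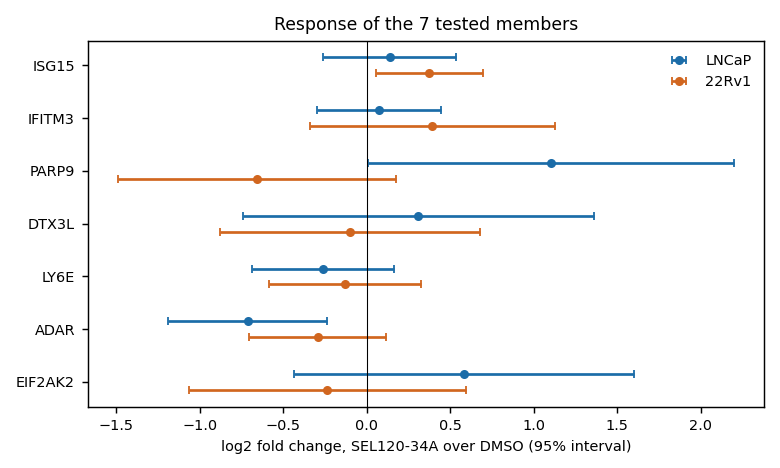
Log2 fold change of SEL120-34A over DMSO for the 7 tested members in LNCaP (blue) and 22Rv1 (orange), with 95% intervals from the edgeR fit. Most intervals span 0, and the exceptions before adjustment are ADAR and PARP9 in LNCaP and ISG15 in 22Rv1, none of which passed the threshold after adjustment.

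The difference between the responses of the 2 lines was tested directly. No member passed, with 0 of 7 higher in LNCaP, against 0.268% of all genes, and 0 of 7 lower, against 0.466%, and the DESeq2 Wald test also called 0. One member had an unadjusted p under 0.05. This was PARP9, whose response was 1.76 ± 0.68 higher in LNCaP on the log2 scale (95% interval 0.38 to 3.13, edgeR adjusted p = 0.298), or 1.12 higher without LNCaP SEL120-34A replicate 3. Its partner DTX3L, which shares the promoter, had a difference of 0.41 ± 0.65.

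In PC3 the comparison was between 1 treated and 1 control library, with 581208 and 909176 counts, and is a description without a test. Of the 17 members with at least 20 counts over both libraries, 13 were lower with SEL120-34A and 4 were higher. Their median log2 ratio was -0.21, against 0.0097 over the 8205 genes with as many counts, 50.8% of which were higher. Of the 17, 3 had a log2 ratio of -1 or less, against 3.73% of all genes, and 0 had a ratio of 1 or more, against 2.25%. The 95% counting interval lay below 0 for 4 of them, against 4.9% of all genes, and above 0 for none, against 6.72%. Members such as IRF1, IFIT1 and EIF2AK2 reached 20 counts mainly through the DMSO library, in which they were high. These counts of members are therefore a description, and the shares over all genes used the same rule.

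Among these 17, the ratio farthest from 0 was that of IRF1, a transcription factor that itself activates interferon-stimulated genes. It had 27 counts with DMSO and 3 with SEL120-34A, a log2 ratio of -2.48 (95% counting interval -4.85 to -0.78). IFIT1 had 30 and 9 counts (-1.05, -2.31 to 0.06), and EIF2AK2 had 42 and 13 (-1.002, -2.02 to -0.08). UBE2L6, with 53 and 17 counts, and ISG15, with 322 and 133, were the other members whose interval lay below 0, at -0.95 (-1.83 to -0.14) and -0.59 (-0.89 to -0.29). The intervals of 4 other well-counted members included 0. LY6E had 413 and 273 counts (0.09, -0.13 to 0.32), IFITM3 224 and 120 (-0.21, -0.54 to 0.12), IFITM2 89 and 51 (-0.11, -0.64 to 0.40) and ADAR 84 and 39 (-0.42, -1.004 to 0.15).

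Sparser members in PC3 had counts of the same order. IFI27 had 10 and 0 counts, IFI44 10 and 1, IFI44L 9 and 1, OAS1 16 and 5, OAS2 11 and 2, PARP14 12 and 2 and MX1 14 and 5. For IFI27 the counting interval of the log2 ratio ended at -0.47, and for the other 6 it reached above 0. The share of equally sparse genes with such an interval was not computed. By contrast OAS3 had 21 and 13 counts, IRF7 25 and 15, SP100 26 and 18, IFIT3 11 and 9 and IFIT5 11 and 10, with ratios between -0.05 and 0.55. IFIT2 had 6 and 3 counts, STAT2 9 and 5, OASL 5 and 3 and HERC5 4 and 3, with log2 ratios between -0.31 and 0.27. The counting intervals leave out the spread between replicate libraries, which was above counting error in the lines with replicates, so they are too narrow for a difference between treatments.

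**Figure D5:**
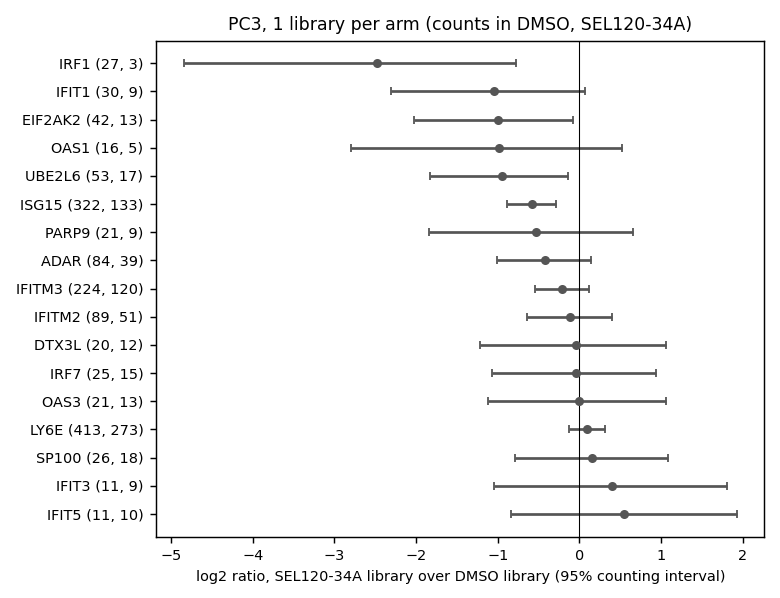
Log2 ratio of the PC3 SEL120-34A library over the PC3 DMSO library for the 17 members with at least 20 counts, with 95% counting intervals and the 2 counts beside each symbol. The ratios run from -2.48 for IRF1 to 0.55 for IFIT5, and the intervals of IRF1, EIF2AK2, UBE2L6 and ISG15 lie below 0.

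Side by side, ISG15 had log2 values of 0.14 in LNCaP, 0.38 in 22Rv1 and -0.59 in PC3. The pooled IRF1 level was 2.71 CPM with DMSO and 10.7 with SEL120-34A in LNCaP. It was 3.63 and 4.13 in 22Rv1 and 28.5 and 5.11 in PC3. The counts behind these IRF1 levels were 5 and 12, 7 and 4, and 27 and 3. For IRF1, every library of LNCaP DMSO, of both 22Rv1 arms and of PC3 SEL120-34A was at or under the floor of 3 counts. IRF1 was named in LNCaP after its values were seen. The difference between PC3 and the other lines was not tested.

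A list of 41 further genes of the interferon pathway, none of them members, was read in the same way. The 10 interferon genes on it were at or under the floor in every library, and the single count among them was of IFNE in PC3. Of the 41 genes, 10 could be tested, and 0 were called in either inhibitor contrast or in their difference. Between the DMSO arms, 2 were higher in 22Rv1 than in LNCaP and 0 were lower. They were IFNGR2, a subunit of the receptor for interferon gamma, at a log2 difference of 1.36 ± 0.25 (edgeR adjusted p = 2.40e-05), and PTPN2, a phosphatase that dampens JAK signaling, at 0.71 ± 0.22 (adjusted p = 0.00712). Both chains of the type I receptor were present in all lines, with 39 counts of IFNAR1 and 35 of IFNAR2 in LNCaP, 39 and 34 in 22Rv1 and 21 and 19 in PC3.

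JAK1, one of the kinases that type I, II and III receptors need, had 4 counts over the 6 LNCaP libraries, 1 count over the 6 22Rv1 libraries and 26 and 16 counts in the PC3 libraries. TYK2, the other kinase of the type I receptor, was present in all lines, with 89, 123 and 122 counts. The cytosolic DNA sensor CGAS and its adaptor STING1 had 16 counts each in PC3 and at most 1 count in the other lines. JAK1, CGAS and STING1 are named after their values were seen, from a list whose genes did not all follow the member counts. TBK1 had 48, 85 and 14 counts in LNCaP, 22Rv1 and PC3, and DHX58 had 7, 1 and 0. SOCS3, at 0, 1 and 72, and IKBKE, at 1, 14 and 39, were highest in PC3. Of all genes, 20.7% and 19.8% were at least 2-fold higher in PC3 DMSO than in LNCaP and 22Rv1 DMSO. The part of these pathway genes in the member levels was not tested.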

How the data were processed

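RNA of 14 libraries was measured by BRB-seq. According to the submitters' processing notes, reads were aligned with STARsolo to GRCh38.p13. The authors deposited raw counts per gene, which were used here. Whether molecular identifiers were collapsed or strand was used in counting is not given in the sources used here, so intervals and floors cover counting error only. The authors' log2 CPM table was not used. Groups came from the sample titles.

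Counts of the 12 LNCaP and 22Rv1 libraries were fitted with edgeR 4.0.16 in R 4.3.3 (1 mean per group, TMM, low-count filter, quasi-likelihood test, 8 residual degrees of freedom, Benjamini-Hochberg adjustment over 7086 genes, threshold 0.05). CPM use TMM factors over 14 libraries. Fold changes are given for tested members, and pooled counts have exact conditional binomial 95% intervals for the rest and for PC3. The floor was 3 counts. Replicates differed by more than counting error (chi-square per degree of freedom 1.62 to 2.01). The fit was repeated with a block for replicate number, DESeq2 1.42.0 (size factors, Wald test), library totals, no filter, equal depth and leaving out each library. The fitting script was tested on simulated data. Members tested were named with values by a rule on p-values and line differences, and PC3 members by at least 20 counts and a log2 ratio of at least 1 in size. Promoters came from RefSeq (GRCh38.p14), and gene positions from GENCODE 44. The members and lists were chosen with earlier results of these data known.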

Additional observations from a re-analysis of the deposited data

How the results depend on the processing

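Each comparison was recomputed under 18 alternatives. With the replicate block, 0 members were called in either line or in the difference and 6 between the DMSO arms, as without it. Same-numbered DMSO and SEL120-34A libraries had correlations from -0.047 to 0.12 in their deviations, so the numbers were not taken to pair the samples and the block is only reported here. In LNCaP, 1 member was called with no filter (IFIH1), and leaving out 1 library gave 0 to 1 (ADAR without LNCaP DMSO replicate 2, IFIH1 without any one 22Rv1 library). IFIH1 entered the fits that left out 1 library through the LNCaP SEL120-34A libraries in which it was high. In 22Rv1 and in the difference, 0 were called under all 18. Between the DMSO arms, equal depth left 2 called (ISG15 and IFITM3) of 4 members tested, no filter gave 9 of 37 (IFITM2, PARP14, IFIT5 and IFI6 were added and ADAR was lost), and leaving out 1 library gave 5 to 8. The ADAR line difference was also lost at equal depth. Library totals moved the median log2 fold change of all genes to -0.14 in 22Rv1 and the line difference to 0.24.

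Signs turned only for values within their error. The IFITM3 fold change in LNCaP was -0.013 with library totals and -0.0021 with no filter, and its difference between lines was 0.039 at equal depth. Leaving out 1 library gave ranges across 0 in LNCaP for ISG15 (-0.21 to 0.30) and IFITM3 (-0.11 to 0.17). In 22Rv1 it did so for DTX3L (-0.41 to 0.33), LY6E (-0.27 to 0.13) and EIF2AK2 (-0.66 to 0.20). In the difference it did so for DTX3L (-0.024 to 0.71) and LY6E (-0.39 to 0.0044). In PC3, DESeq2 size factors put EIF2AK2 at -0.99, so 2 members rather than 3 had a log2 ratio of -1 or less. At this depth, 37 of 44 members did not pass the filter.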
